A study of Homo sapiens with 20 samples.

Results

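The angiomotins and the YAP-TEAD pathway were followed through 10 Hippo pathway genes: the angiomotins AMOT, AMOTL1 and AMOTL2, the coactivators YAP1 and WWTR1, the DNA-binding factor TEAD1, the target genes CCN1 and CCN2, and the kinases LATS1 and LATS2. They were picked by name from 57087 genes with a transcript in the files, because AMOT RNA was much lower in shDicer mRNA and in the chromatin RNA of samples labelled shDrosha. The values of AMOT in those 2 contrasts therefore chose the set and are described without a test. The other members were tested across all genes. The human embryonic kidney line HEK293 had been depleted of small RNA factors by short hairpin RNA (shRNA), and 14 samples were sequenced in 2 ways. In mRNA-seq, 3 wt samples labelled HEK293T were compared with 3 Dicer knockdown (shDicer) samples labelled HEK293 2B, all kept for 7 days with doxycycline at 3 µg/ml. In chrRNA-seq, RNA that remained bound to chromatin was sequenced from 2 samples each of wt, shDicer, Ago2 knockdown (shAgo2) and Drosha knockdown (shDrosha) cells, all labelled HEK293. The shDicer and shAgo2 cells of that assay are inducible lines that received 3 µg/ml doxycycline for 72 h, whereas shDrosha was introduced by transfection of shRNA plasmids. Whether wt and shDrosha cells of chrRNA-seq received doxycycline is not given in the sources used here, and no scrambled-shRNA line is among these samples. The knockdown and the cell line or clone that carries it thus cannot be told apart. Nothing in the labels ties replicates to separate cultures, so that p-values measure only the spread between these samples, which may be technical. In bulk RNA, fewer cells of a type and less RNA per cell cannot be told apart either.

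The Hippo pathway links cell contacts and cytoskeletal tension to growth. Its kinases LATS1 and LATS2 phosphorylate the coactivators YAP1 and WWTR1 (also called TAZ) and keep them in the cytoplasm. Unphosphorylated coactivators enter the nucleus, bind TEAD factors at DNA and switch on genes such as CCN1 and CCN2, which encode secreted matrix proteins. Angiomotins are scaffolds of cell junctions and actin that bind YAP1 directly and also help to activate the LATS kinases. AMOTL2 is itself a known target of YAP1 and TEAD, which makes it part of a feedback loop.

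DICER1 mRNA was lower in shDicer cells, at 87.8 ± 6.92 CPM (read counts relative to library size, scaled by TMM; SD, n = 3) against 247 ± 13.5 in wt. DICER1 chromatin RNA was 108 ± 0.879 CPM in shDicer and 122 ± 3.78 in wt (SD, n = 2; adjusted p = 0.166), and AGO2 fell from 247 ± 10.7 to 161 ± 2.06 CPM in shAgo2. In the same shAgo2 samples DICER1 chromatin RNA rose to 209 ± 7.51 CPM (log2 fold change 0.78, adjusted p = 3.59e-05). Between shDicer and shAgo2 it thus differed by −0.95 (adjusted p = 0.00011). DROSHA chromatin RNA was not lower in the samples labelled shDrosha (157 ± 12.9 CPM against 149.6 ± 5.24, adjusted p = 0.697), so these are named by their label throughout. Chromatin RNA alone cannot show whether mature mRNA or protein fell. The paper reports by western blot that Dicer, Drosha and Ago2 were knocked down. It also measured their steady-state transcripts by qRT-PCR in the samples taken for chrRNA-seq. VIM, a marker of these cells, was abundant throughout, but its chromatin RNA changed by −1.50, −1.21 and −0.80 (log2) in shDicer, shAgo2 and shDrosha. The neurofilament gene NEFL, which HEK293 cells are known to express, rose by 3.73 in shDicer and 2.91 in shAgo2 chromatin RNA and by 4.77 in shDicer mRNA, whereas NEFM changed by −3.28, −4.71 and −3.94 in the same order and by −1.07 in shDrosha chromatin RNA. The keratin gene KRT8 rose by 1.51 in shDicer mRNA and by 1.50 and 1.82 in shDicer and shAgo2 chromatin RNA, and KRT18 rose by 1.81 in shDicer mRNA and 1.28 in shDicer chromatin RNA. The kidney genes PAX2 and LHX1 were at 0.111 to 0.636 CPM in the group means of mRNA, whereas in chromatin RNA PAX2 rose from 10.8 to 20.7 CPM in shDicer and LHX1 fell by 2.31 in shAgo2. These marker shifts moved with the same samples as the changes reported here, and their part in the result was not tested. Of 4 markers of other cells, group means reached 0.0544 CPM for CD3E, 0.265 for ALB and 1.87 for PTPRC, while PECAM1 had 15.0 to 16.9 CPM in chromatin RNA and at most 0.464 CPM in mRNA.

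In wt mRNA, AMOT was the most abundant member per length, at 27.4 ± 1.76 TPM (transcript abundance corrected for length; SD, n = 3), and its samples lay above those of every other member. TEAD1 (5.06 ± 1.59), LATS1 (4.71 ± 0.0640), YAP1 (4.22 ± 0.205), AMOTL1 (3.73 ± 0.394), AMOTL2 (3.10 ± 0.350) and CCN1 (2.72 ± 0.637 TPM) followed. WWTR1 and CCN2 had 1.76 ± 0.533 and 1.69 ± 0.532 TPM, and LATS2 came last at 0.855 ± 0.130. In this order only AMOT, LATS1 and CCN2 were separated from the next gene by ranges that did not overlap. In wt chromatin RNA, the order began with AMOT at 245 ± 14.3 TPM, TEAD1 at 30.5 ± 0.439, LATS1 at 19.7 ± 1.35 and AMOTL1 at 19.2 ± 3.32 (SD, n = 2). It ended with CCN2 at 0.467 ± 0.00837 TPM, and only LATS1 and AMOTL1 overlapped as neighbours. TPM is set within each assay, so that levels are not compared between the assays. A single transcript can weigh more in TPM than in counts. TEAD1-204 made up 54.8% and 57.4% of TEAD1 TPM in wt chromatin RNA, but 10.9% and 11.8% of its estimated counts.

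The 10 members passed the filter on low counts in every fit. In shDicer mRNA, where AMOT helped to choose the set and is not counted, 3 of the 9 others were lower past the threshold used for that contrast (AMOTL2, CCN1 and LATS1; an adjusted p under 0.001) and 0 were higher, while 14.2% of all tested genes were called lower and 15.6% higher. Of the same 9 genes, 5 were lower and 2 higher at an unadjusted p under 0.05, and DESeq2 called 0 members higher as well. The share of all genes at an unadjusted p was not counted, so that such counts have no background here or below. In shDicer mRNA, 4178 of 15090 genes were lower and 4485 higher even at an adjusted p under 0.05. In shDicer chromatin RNA (adjusted p under 0.005), 3 of these 9 were higher (WWTR1, CCN1 and CCN2) and 2 lower (AMOTL2 and LATS1). These are 33.3% and 22.2%, against 11% and 10.5% of all genes. For shAgo2, 2 of the 9 were higher (WWTR1 and CCN2) and 2 lower (AMOTL2 and LATS1), 22.2% each, where 12.5% and 12.1% of all genes were called. AMOT was lower in both but is not counted, because both contrasts use the wt samples of the shDrosha contrast that helped to choose it. For shDrosha (adjusted p under 0.05), AMOT is again not counted, and none of the other 9 passed (0 by edgeR; 3 higher and 0 lower at an unadjusted p under 0.05; DESeq2 called 0 members higher), where 1.19% of all genes were called higher and 2.18% lower. The 3 chromatin comparisons share the 2 wt samples, so their members' values are given side by side and not as repeated evidence. The median log2 fold change of the members other than AMOT was −0.51 in shDicer mRNA, 0.089 and 0.35 in shDicer and shAgo2 chromatin RNA and 0.18 in shDrosha, against medians between 0.0028 and 0.011 over all tested genes.

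**Figure D1:**
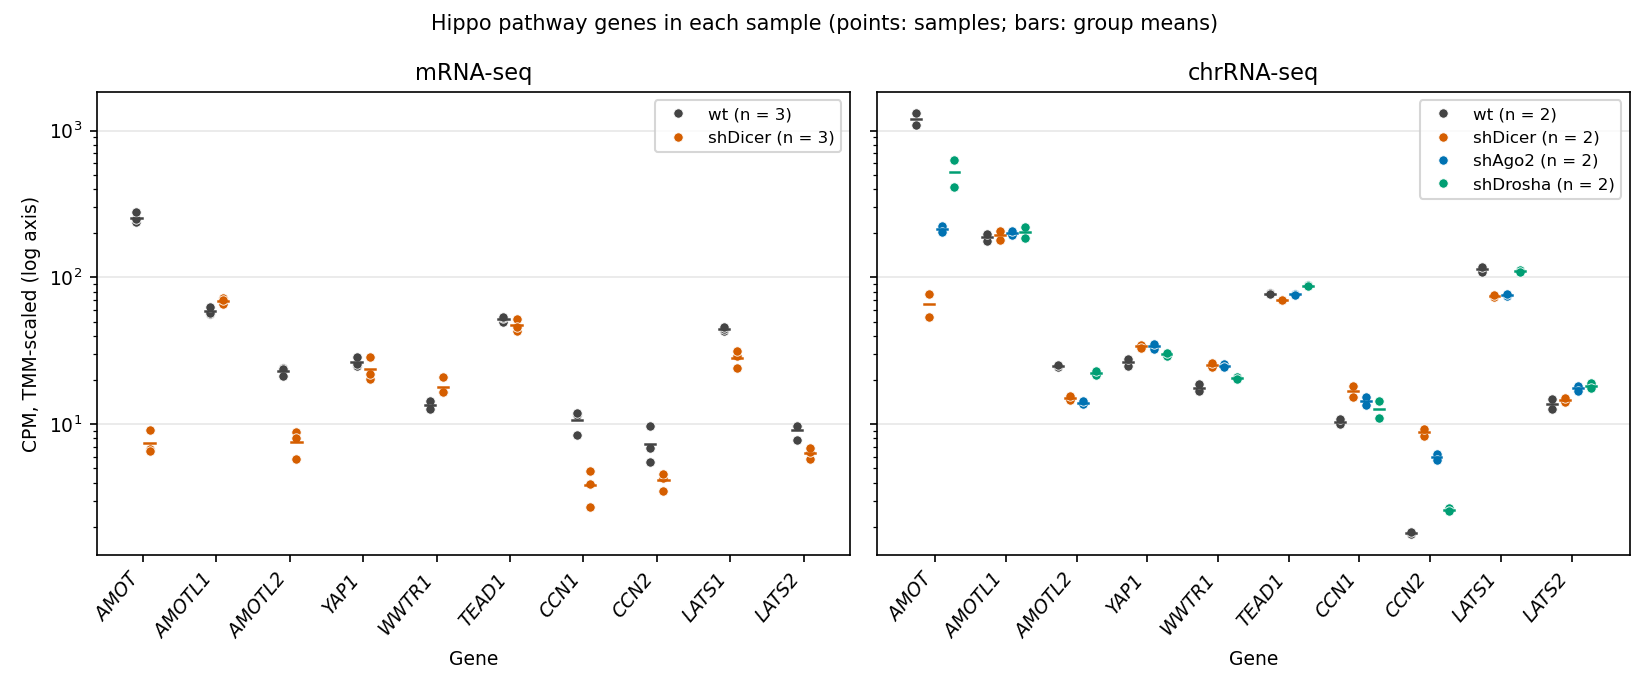
CPM (TMM-scaled, log axis) of the 10 members in each sample of mRNA-seq (left) and chrRNA-seq (right), with points for samples and bars for group means. AMOT ranges from 279 CPM in a wt sample to 6.58 CPM in a shDicer sample of mRNA-seq, and from 1315 to 53.4 CPM in chrRNA-seq. CCN2 is lower in shDicer mRNA but higher in shDicer chromatin RNA than in wt.

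AMOT (ENSG00000126016; GRCh38, chromosome X, 112774503 to 112840831, minus strand), the founding angiomotin, was measured at 237, 248 and 279 CPM in the 3 wt mRNA samples and at 6.74, 6.58 and 9.18 CPM in shDicer. The groups were far apart, by 33.5-fold in the fit (log2 fold change −5.07). In chromatin RNA AMOT had 1083 and 1315 CPM in wt, 626 and 412 in shDrosha, 223 and 204 in shAgo2 and 53.4 and 77.6 in shDicer. Each group lay wholly below the one named before it. The log2 fold change for shDrosha was −1.21, again as a description. It was −1.54 without shDrosha replicate 1.

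AMOT chromatin RNA fell by 4.19 on the log2 scale in shDicer (standard error 0.216) and by 2.49 in shAgo2 (standard error 0.199). These contrasts share the wt samples with the shDrosha contrast that helped to choose the gene, so they are described without a p-value. The contrast of shDicer with shAgo2 does not use wt. AMOT was also chosen for its low level in shDicer mRNA, however, so that this contrast is not independent of the choice. In it AMOT was lower in shDicer by a log2 difference of −1.70 (standard error 0.199, adjusted p = 0.000423). That comparison called 1.34% of genes lower and 1.37% higher. AMOT was the only member called in it. That call was lost without shAgo2 replicate 1 (−1.64, adjusted p = 0.00759) and without shAgo2 replicate 2 (−1.76, adjusted p = 0.00636). The 50 tested genes nearest to AMOT on chromosome X had median log2 changes of −0.28 in shDicer mRNA, 0.20 in shDicer, −0.021 in shAgo2 and 0.051 in shDrosha chromatin RNA.

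Over the 8 chromatin samples, the genes whose log2(CPM + 0.5) was most like that of AMOT, among 15916 genes averaging 3 or more in log2 CPM, were ENSG00000278041, NAA20, RRM2, PKN2 and COG1, with Pearson r from 0.989 to 0.992. The points share their libraries and group structure, so this is a description. Those genes changed far less: NAA20, a catalytic subunit of an N-terminal acetyltransferase, changed by −0.96, −0.59 and −0.25 in shDicer, shAgo2 and shDrosha chromatin RNA, and RRM2, a subunit of ribonucleotide reductase, by −0.44, −0.27 and −0.15.

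**Figure D2:**
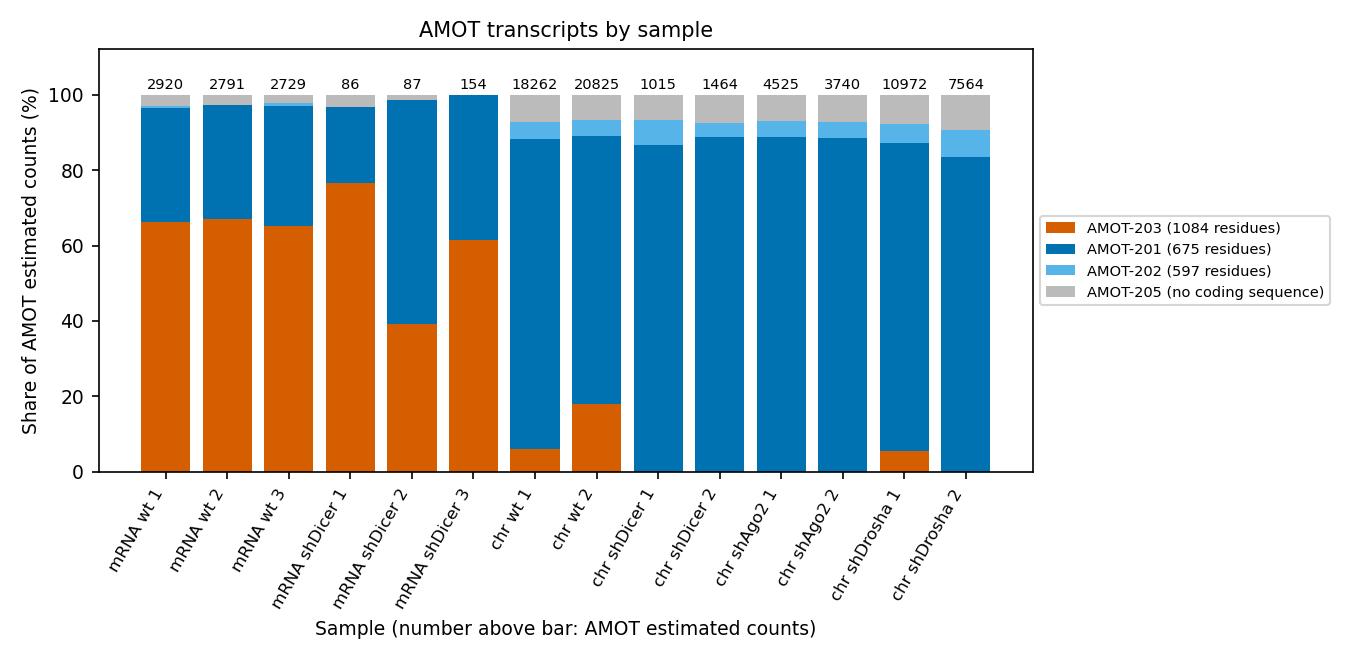
Share of AMOT estimated counts (%) that fell on each annotated transcript in each of the 14 samples, with the AMOT estimated count of the sample above its bar. AMOT-203 takes most counts in wt mRNA, and AMOT-201 takes most in every chromatin sample.

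AMOT makes a long protein, which carries the N-terminal part that binds YAP1, and a short one that lacks it. In wt mRNA the transcript of the long form, AMOT-203 (1084 residues in the annotation), had 1931, 1870 and 1776 estimated counts, and that of the short form, AMOT-201 (675 residues), had 881, 842 and 868. In shDicer mRNA the long transcript had 65.9, 34.0 and 94.6 counts and the short one 17.3, 51.4 and 59.1. Both transcripts were thus lower in every shDicer sample than in any wt sample. The share of AMOT counts on the long transcript was 65.1% to 67.0% in wt and 39.2% to 76.7% in shDicer, and these ranges overlapped. In chromatin RNA, AMOT-201 held most counts: 14999.5 and 14782 in wt, 8952 and 6317 in shDrosha, 4009.5 and 3314 in shAgo2, and 879 and 1302 in shDicer. AMOT-203 was assigned 1090 and 3741 counts in wt chromatin RNA, 599 and 0 in shDrosha, 1.8 and 0 in shAgo2, and 0 in both shDicer samples. Its share of AMOT counts was 5.97% and 17.96% in the 2 wt samples and 5.46% and 0% in shDrosha, so that those ranges did not overlap but the wt samples were far apart. kallisto splits reads among transcripts by likelihood, and only 598 of the 31-base subsequences of AMOT-203 and 402 of those of AMOT-201 are in no other AMOT transcript of GENCODE 44, so these shares are estimates. By TPM, a 510-base transcript without a coding sequence, AMOT-205, made up 58.2% to 60.4% of AMOT in wt chromatin RNA and 31.5% to 37.7% in wt mRNA. In wt mRNA it held 2.33% to 3.06% of the estimated counts. In both assays this inflates the gene's TPM beside its CPM.

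AMOTL2 (ENSG00000114019; chromosome 3, 134355347 to 134375479, minus strand) was lower in both inducible lines. In mRNA it had 24.2, 23.7 and 21.3 CPM in wt and 8.85, 5.83 and 8.05 in shDicer. The groups did not overlap, and the log2 fold change was −1.61 (standard error 0.156, adjusted p = 8.94e-06). In chromatin RNA AMOTL2 had 24.4 and 25.2 CPM in wt, 14.6 and 15.5 in shDicer, 13.7 and 14.4 in shAgo2 and 21.7 and 23.1 in shDrosha. It fell by 0.72 in shDicer (adjusted p = 0.000102) and by 0.82 in shAgo2 (adjusted p = 3.27e-05). With the counts rebuilt from TPM to even out transcript length, neither chromatin call remained (−0.56, adjusted p = 0.00734 and −0.55, adjusted p = 0.00769). The shDrosha change of −0.14 did not pass (adjusted p = 0.441). Its 50 neighbours had medians of −0.34 in shDicer mRNA and −0.25 and −0.32 in shDicer and shAgo2 chromatin RNA.

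AMOTL1 (ENSG00000166025; chromosome 11, 94706431 to 94876748), the third angiomotin, did not pass in any contrast. Its mRNA had 56.6, 57.5 and 62.8 CPM in wt and 66.1, 72.0 and 69.6 in shDicer, a log2 fold change of 0.23 (95% interval 0.077 to 0.39, adjusted p = 0.0270) with groups that did not overlap. In chromatin RNA AMOTL1 ranged from 178 to 221 CPM over the 8 samples. All groups overlapped wt there, and the intervals of the changes ran from −0.17 to 0.24 in shDicer, from −0.11 to 0.29 in shAgo2 and from −0.085 to 0.32 in shDrosha. Its neighbours had a median of −0.31 in shDicer mRNA. When the neighbours' median was used as an offset in the fit, AMOTL1 passed the threshold at 0.54 (adjusted p = 0.000216). The offset is taken as known, so that its own spread does not enter that p-value.

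**Figure D3:**
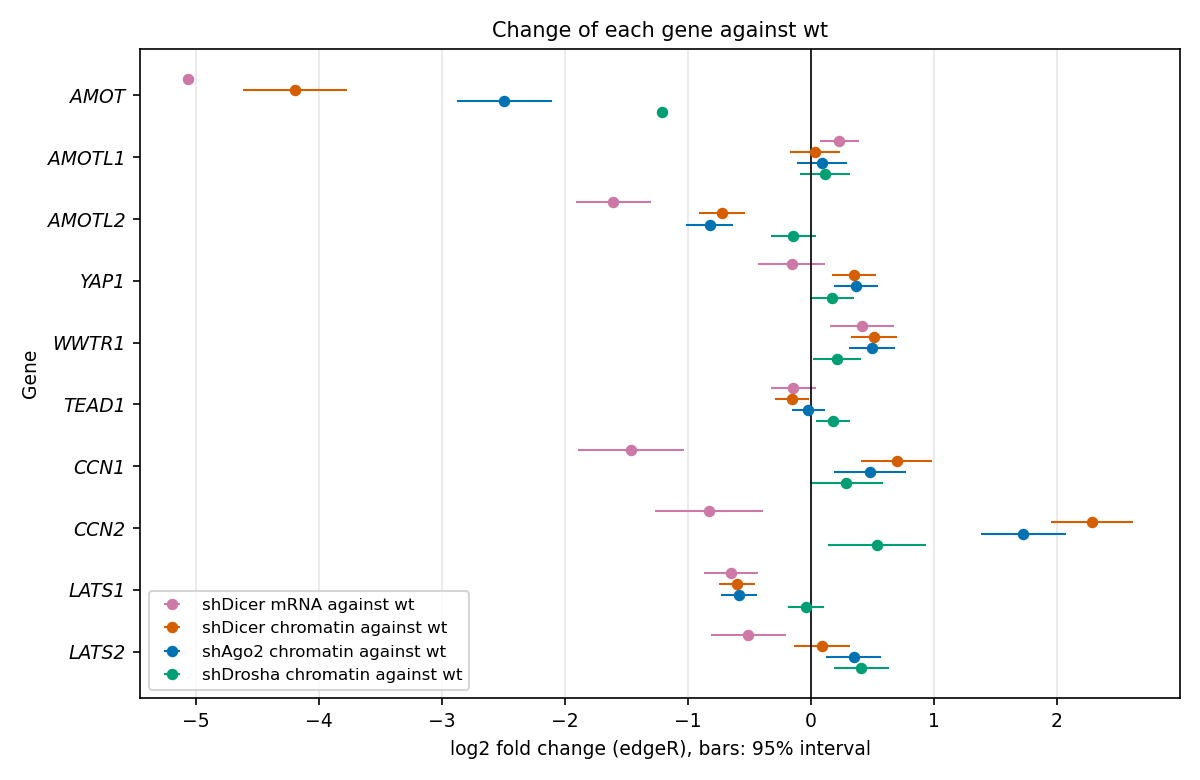
Log2 fold change of each member against wt in the 4 comparisons, with 95% intervals from edgeR. AMOT has no interval in the 2 comparisons it was chosen from, and its other intervals rest on wt samples that helped to choose it. AMOTL2 and LATS1 lie below 0 in shDicer mRNA and in shDicer and shAgo2 chromatin RNA, and CCN1 and CCN2 lie on opposite sides of 0 in shDicer mRNA and shDicer chromatin RNA.

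YAP1 (ENSG00000137693; chromosome 11, 102110447 to 102233424), the main coactivator, was measured in mRNA at 24.97, 25.7 and 28.9 CPM in wt and at 20.4, 21.9 and 28.7 in shDicer. These groups overlapped (log2 fold change −0.16, 95% interval −0.43 to 0.12). In chromatin RNA YAP1 had 25.1 and 27.9 CPM in wt, 34.5 and 33.1 in shDicer, 32.8 and 35.4 in shAgo2 and 28.9 and 30.7 in shDrosha. The samples labelled shDicer, shAgo2 and shDrosha all lay above wt, yet none of the changes passed: 0.35 in shDicer (adjusted p = 0.00904), 0.36 in shAgo2 (adjusted p = 0.00694) and 0.17 in shDrosha (adjusted p = 0.339). When only wt and shAgo2 were fitted, the shAgo2 change passed (adjusted p = 0.00161).

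WWTR1 (ENSG00000018408; chromosome 3, 149517235 to 149736714, minus strand), the paralogue of YAP1, was higher in both inducible lines. Its chromatin RNA had 16.8 and 18.7 CPM in wt, 24.6 and 26.0 in shDicer, 25.6 and 24.6 in shAgo2 and 20.9 and 20.2 in shDrosha. The rise was 0.51 in shDicer (standard error 0.0961, adjusted p = 0.00125) and 0.50 in shAgo2 (standard error 0.0961, adjusted p = 0.00128), and the 2 lines overlapped. The shDicer call was lost without wt replicate 1 (adjusted p = 0.0252), wt replicate 2 (adjusted p = 0.00573) or shDicer replicate 2 (adjusted p = 0.00895). The shAgo2 call was lost without any 1 of its 4 samples (adjusted p = 0.0259 and 0.00561 without wt replicates 1 and 2, and 0.0178 and 0.00903 without shAgo2 replicates 1 and 2). In mRNA WWTR1 had 13.5, 14.3 and 12.7 CPM in wt and 16.5, 16.6 and 20.8 in shDicer, a change of 0.42 that did not pass (adjusted p = 0.0190). With its neighbours' median of −0.40 as an offset, it passed at 0.82 (adjusted p = 0.000410). That median was taken as known, so that its own spread did not enter the p-value. In chromatin RNA the neighbours of WWTR1 had medians of 0.037 in shDicer and −0.079 in shAgo2.

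TEAD1 (ENSG00000187079; chromosome 11, 12674421 to 12944737), one of 4 TEAD factors that bring the coactivators to DNA, moved little. Its mRNA had 49.6, 52.8 and 53.7 CPM in wt and 43.3, 51.9 and 46.3 in shDicer (log2 fold change −0.14, 95% interval −0.32 to 0.040). In chromatin RNA TEAD1 had 77.7 and 77.5 CPM in wt, 70.1 and 69.7 in shDicer, 77.5 and 75.5 in shAgo2 and 89.2 and 86.7 in shDrosha. The shDicer samples lay below wt (−0.15, adjusted p = 0.110) and the shDrosha samples above it (0.18, adjusted p = 0.178), and neither change passed.

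LATS1 (ENSG00000131023; chromosome 6, 149658153 to 149718105, minus strand), a kinase that inhibits YAP1, was lower in shDicer mRNA and in both inducible lines in chromatin RNA. In mRNA it had 42.9, 44.5 and 46.2 CPM in wt and 24.3, 29.1 and 31.7 in shDicer. The log2 fold change was −0.65 (standard error 0.111, adjusted p = 0.000506), with groups well apart. That call was lost without any of the 3 wt samples or without shDicer replicate 2 (adjusted p between 0.00247 and 0.00316), with counts scaled from TPM (adjusted p = 0.00145), and with the neighbours' median of −0.32 as an offset (−0.32, adjusted p = 0.0298). In chromatin RNA LATS1 had 108 and 118 CPM in wt, 73.4 and 75.9 in shDicer, 74.7 and 76.5 in shAgo2 and 111.5 and 108.7 in shDrosha. It fell by 0.60 in shDicer (adjusted p = 6.09e-05) and by 0.58 in shAgo2 (adjusted p = 6.58e-05), where neighbours had medians of 0.042 and 0.052, and the shDrosha samples lay within the range of wt.

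LATS2 (ENSG00000150457; chromosome 13, 20973036 to 21061586, minus strand), the second LATS kinase, did not pass in any contrast as fitted. Its mRNA had 7.86, 9.78 and 9.72 CPM in wt and 5.80, 6.43 and 6.91 in shDicer (log2 fold change −0.51, adjusted p = 0.0168). In chromatin RNA it had 12.6 and 14.9 CPM in wt, 14.2 and 15.1 in shDicer, 18.1 and 16.9 in shAgo2 and 19.0 and 17.5 in shDrosha. The shAgo2 and shDrosha samples lay above wt, by 0.35 (adjusted p = 0.0277) and 0.41 (adjusted p = 0.0736). With the counts rebuilt from TPM both passed (0.63, adjusted p = 0.00388 and 0.74, adjusted p = 0.0341). The transcript LATS2-202 weighs heavily in those values: in chromatin RNA it held 38.5% to 57.2% of LATS2 TPM but 3.42% to 7.08% of its estimated counts. LATS2 mRNA is a known target of miR-373-3p, a microRNA of the embryonic miR-371 cluster. The sequences below show the microRNA with its seed (bases 2 to 8) in capitals and the stretches of the LATS2 3′UTR that match that seed in capitals (GRCh38, chromosome 13, minus strand; microRNA from RefSeq, transcript from GENCODE 44).
hsa-miR-373-3p: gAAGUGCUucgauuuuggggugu
LATS2 chr13:20974591-20974619: agtttagaaagAGCACTTattttgtttat
LATS2 chr13:20974491-20974519: attttatccatAGCACTTattcacattta
The seed match AGCACTT occurs in 21.4% of 18780 annotated 3′UTRs, so a match is a description of these letters and not of a site in use.

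CCN2 (ENSG00000118523; chromosome 6, 131948176 to 131951372, minus strand), also known as CTGF and often used to read out YAP1 activity, went in opposite directions in the 2 assays. In mRNA it had 6.89, 9.70 and 5.53 CPM in wt and 3.53, 4.31 and 4.59 in shDicer. The shDicer samples were all lower, but the change of −0.83 did not pass (standard error 0.223, adjusted p = 0.00830). It passed without a filter on low counts (−0.79, adjusted p = 0.000864). In chromatin RNA CCN2 had 1.78 and 1.83 CPM in wt, 8.37 and 9.27 in shDicer, 6.25 and 5.73 in shAgo2 and 2.68 and 2.56 in shDrosha. It rose by 2.28 in shDicer (4.87-fold; standard error 0.169, adjusted p = 9.85e-07) and by 1.73 in shAgo2 (3.31-fold; standard error 0.177, adjusted p = 1.10e-05). In shDrosha both samples were also above wt, without passing (0.54, adjusted p = 0.178). The contrast of the 2 lines did not pass (0.56 higher in shDicer, adjusted p = 0.0225). The 50 neighbours of CCN2 on chromosome 6 had medians of 0.20 and 0.42 in shDicer and shAgo2 chromatin RNA.

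CCN1 (ENSG00000142871; chromosome 1, 85580761 to 85584589), also known as CYR61, followed the same pattern. Its mRNA had 11.5, 12.01 and 8.39 CPM in wt and 2.74, 3.93 and 4.83 in shDicer, without overlap. The log2 fold change was −1.46 (standard error 0.221, adjusted p = 0.000206), and the call was lost without wt replicate 1 (adjusted p = 0.00248), wt replicate 2 (adjusted p = 0.00110) or shDicer replicate 2 (adjusted p = 0.00134). In chromatin RNA CCN1 had 9.96 and 10.8 CPM in wt, 15.3 and 18.3 in shDicer, 15.3 and 13.6 in shAgo2 and 14.3 and 11.1 in shDrosha. The samples of the other 3 labels all lay above wt. The rise of 0.70 in shDicer passed (standard error 0.146, adjusted p = 0.00259), whereas those of 0.48 in shAgo2 (adjusted p = 0.0209) and 0.29 in shDrosha (adjusted p = 0.329) did not. The shDicer call was lost without wt replicate 1 (adjusted p = 0.0331), wt replicate 2 (adjusted p = 0.0156) or shDicer replicate 2 (adjusted p = 0.0228), and with counts scaled from TPM (adjusted p = 0.00952).

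Whether the shDicer change differed between mRNA and chromatin RNA was tested directly in a fit of all 14 samples, at an adjusted p under 0.005; this test was added after the values had been seen. The change in mRNA was below that in chromatin RNA by a log2 difference of −3.19 for CCN2 (standard error 0.310, adjusted p = 5.36e-07) and of −2.23 for CCN1 (standard error 0.283, adjusted p = 1.70e-05). For AMOTL2 it was −0.96 (standard error 0.199, adjusted p = 0.00266). Of all genes, 1.79% were called in this direction and 2.69% in the other. Without single samples the difference ranged from −3.37 to −2.94 for CCN2 and from −2.49 to −2.02 for CCN1, and both passed throughout, whereas AMOTL2 lost its call without wt replicates 1 or 2 or shDicer replicate 2 of mRNA-seq, or any of the 4 chromatin samples of these groups (adjusted p between 0.00599 and 0.0212). The difference did not pass for LATS2 (−0.66, adjusted p = 0.0325), YAP1 (−0.58, adjusted p = 0.0614, but −0.79 and 0.00144 without shDicer replicate 3 of mRNA-seq), WWTR1, TEAD1, LATS1 or AMOTL1. The assays also differed in the labelled lines, in the days of induction and in the library kit, which cannot be told apart from the RNA fraction.

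The TEAD factors recognise the motif GGAATG, which was searched in RefSeq promoters from 250 bases before to 50 after each start, on both strands (CATTCC on the other). CCN2 had 3 matches, the most of any member, and they are shown with 12 bases on either side and the motif in capitals, in the direction of the gene (GRCh38.p14).
CCN2 chr6:131951524-131951553: ttttcagacggaGGAATGctgagtgtcaag
CCN2 chr6:131951459-131951488: ggaaggtggggaGGAATGcgaggaatgtcc
CCN2 chr6:131951450-131951479: ggaggaatgcgaGGAATGtccctgtttgtg
YAP1 chr11:102110273-102110302: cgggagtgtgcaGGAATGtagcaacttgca
AMOTL2 chr3:134374499-134374528: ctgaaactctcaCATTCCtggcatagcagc
LATS2 chr13:21061560-21061589: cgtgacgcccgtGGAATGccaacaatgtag
The matches in CCN2 start 169, 104 and 95 bases before its start, and the last 2 windows overlap. YAP1, AMOTL2 (in 1 of 2 promoters) and LATS2 had 1 match each, and the promoters of AMOT, AMOTL1, WWTR1 and LATS1 had 0. In all, 4 of 11 member promoters (36.4%) held the motif, as did 6 of 14 promoters of a list of YAP1 and WWTR1 target genes (42.9%), beside 4928 of 35116 promoters in all. TEAD1 and CCN1 have no entry in the promoter table. The members with a match did not share a direction: in shDicer chromatin RNA CCN2 was higher, AMOTL2 lower, and YAP1 and LATS2 did not pass.

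The 3′UTR of CCN2 also holds a stretch that matches the seeds of 2 microRNAs of the miR-17-92 cluster, miR-18a-5p and miR-19b-3p, for which CCN2 is a known target. The seeds and their matches are in capitals (GRCh38, chromosome 6, minus strand; microRNAs from RefSeq, transcript from GENCODE 44).
hsa-miR-18a-5p: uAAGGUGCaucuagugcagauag
CCN2 chr6:131948201-131948229: gttacatgtttGCACCTTtctagttgaaa
hsa-miR-19b-3p: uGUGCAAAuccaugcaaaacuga
CCN2 chr6:131948204-131948232: aaagttacatgTTTGCACctttctagttg
The 2 matches overlap, and they occur in 8.9% and 13.7% of 18780 annotated 3′UTRs. These microRNA pairs were taken from general knowledge after the values were known, and the small RNA libraries were not analysed here.

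**Figure D4:**
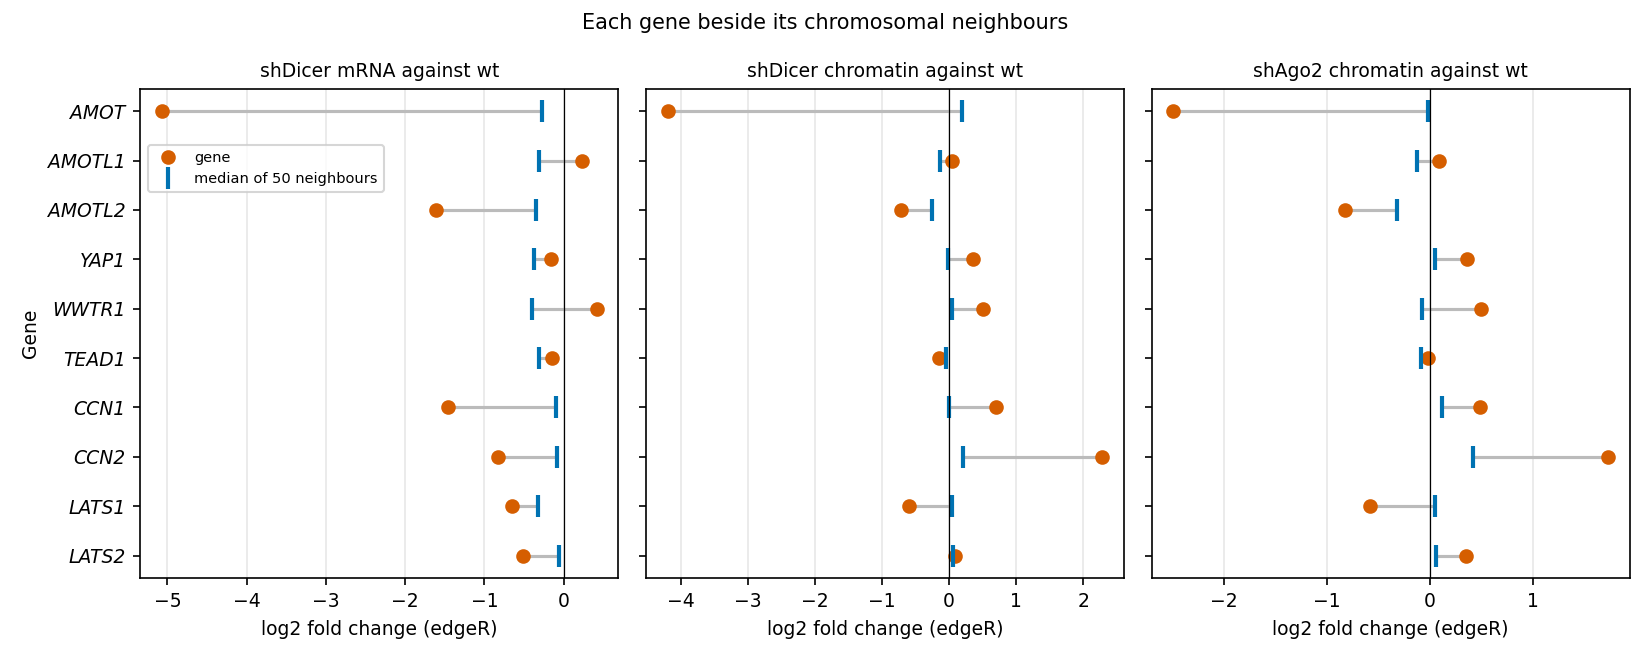
Log2 fold change of each member (points) beside the median of the 50 nearest tested genes on its chromosome (bars) in shDicer mRNA, shDicer chromatin RNA and shAgo2 chromatin RNA, each against wt. AMOT lies far from its neighbours in all 3, and in mRNA the neighbours of 7 members have medians between −0.40 and −0.28.

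The neighbours of a gene show whether a whole stretch of chromosome moved with it. Over all genes, the central 95% of such medians ran from −0.52 to 0.76 in shDicer mRNA, from −0.53 to 0.55 in shDicer and from −0.61 to 0.56 in shAgo2 chromatin RNA, so that the members' neighbourhoods lay inside these ranges. In shDicer mRNA, TEAD1 (−0.14) and YAP1 (−0.16) lay above their neighbours' medians of −0.31 and −0.38, while CCN1 and CCN2 had neighbours near 0 (−0.096 and −0.088).

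Around these members, 65 other pathway genes were listed, of which 1 (FOXF2) had no matched transcript. In mRNA 59 were tested (VGLL1, VGLL2, MYOF, AXL and IGFBP3 did not pass the filter), and 12 were higher and 6 lower in shDicer, that is 20.3% and 10.2%, against 15.6% and 14.2% of all genes. In chromatin RNA 63 were tested. There 13 were higher and 4 lower in shDicer, that is 20.6% and 6.35% against 11% and 10.5% of all genes, and 19 were higher and 6 lower in shAgo2, that is 30.2% and 9.52% against 12.5% and 12.1% of all genes. When any 1 of the 4 samples of the shAgo2 contrast was left out, 7 to 10 were higher and 3 to 4 lower. In shDrosha 2 were higher, NT5E and GADD45A, and 0 lower (3 at an unadjusted p under 0.05, and 1 by DESeq2). These are 3.17% and 0%, against 1.19% and 2.18% of all genes. Between shDicer and shAgo2 0 passed in either direction, where 1.37% of all genes were higher and 1.34% lower. At an unadjusted p under 0.05, 7 were higher and 10 lower there, and DESeq2 called 1 lower. The share of all genes at an unadjusted p was not counted. Of the genes called against wt, 9 of 18 in shDicer mRNA, 12 of 17 in shDicer chromatin RNA, 10 of 25 in shAgo2 and 0 of 2 in shDrosha kept their call when each sample was left out.

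**Figure D5:**
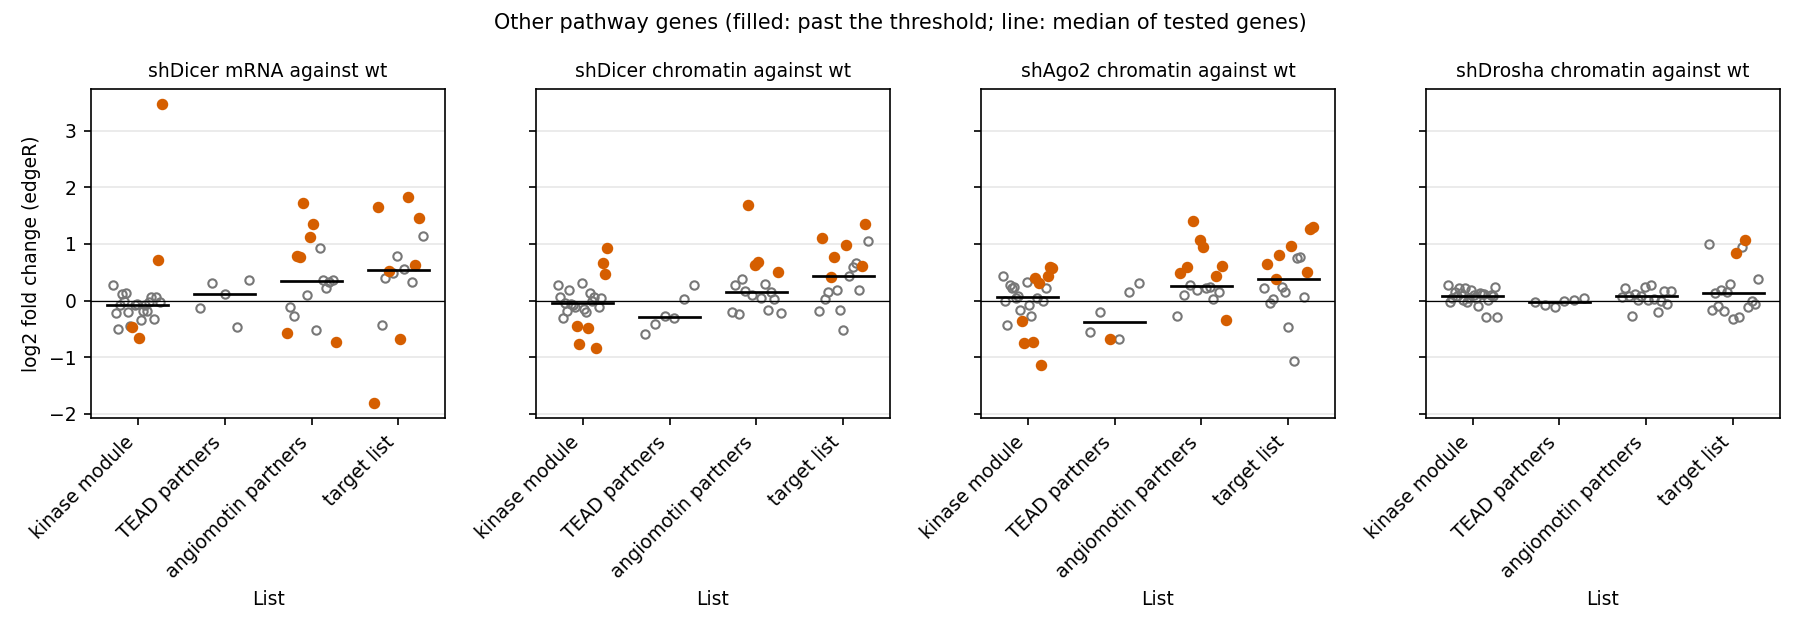
Log2 fold change of the other pathway genes in 4 lists and 4 comparisons against wt, with filled points for genes past the threshold and a line at the median of the tested genes. The target list has medians of 0.54, 0.43, 0.38 and 0.13 from left to right.

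Of 24 genes of the kinase module, 2 were higher and 2 lower in shDicer mRNA (8.33% each, beside 15.6% and 14.2% of all genes), 3 and 4 in shDicer (12.5% and 16.7%, beside 11% and 10.5%) and 5 and 4 in shAgo2 chromatin RNA (20.8% and 16.7%, beside 12.5% and 12.1%). WWC3, a relative of the scaffold KIBRA that helps to activate the LATS kinases, rose from 1.61 ± 0.625 to 17.98 ± 0.897 CPM (log2 fold change 3.47, adjusted p = 2.96e-07), and in chromatin RNA by 0.93 in shDicer and 0.57 in shAgo2, the last call kept in 1 of 4 settings without a sample. STK3 (MST2), which phosphorylates the LATS kinases, fell by 0.67 in shDicer mRNA (adjusted p = 0.000398, up to 0.00239 without single samples) but did not pass in chromatin RNA. NF2 (merlin), which brings LATS to the membrane, fell by 0.47 in shDicer mRNA and by 0.45 and 0.35 in shDicer and shAgo2 chromatin RNA. The adjusted p of NF2 reached 0.00975, 0.0101 and 0.0516 without single samples, past the thresholds. STK4 (−0.34, adjusted p = 0.00224) and SAV1 (−0.054, adjusted p = 0.721) did not pass in shDicer mRNA, nor in any chromatin contrast. TAOK2 changed by −0.84 and −1.13 and RASSF1 by −0.76 and −0.75 in shDicer and shAgo2 chromatin RNA. Of the other TEAD genes, TEAD4 fell in shAgo2 (−0.69, adjusted p = 0.000487), a call kept in 1 of 4 settings without a sample. TEAD2 had 17.1 ± 0.753 CPM in wt chromatin RNA, 11.3 ± 1.52 in shDicer and 11.6 ± 0.572 in shAgo2 (SD, n = 2), without overlap of either with wt, but its changes of −0.60 (adjusted p = 0.00563) and −0.56 (adjusted p = 0.00729) did not pass. TEAD3 did not pass in any contrast.

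Of 16 angiomotin partners, 5 were higher and 2 lower in shDicer mRNA, 4 higher in shDicer and 7 higher and 1 lower in shAgo2 chromatin RNA. These are 31.2% and 12.5% in mRNA (15.6% and 14.2% of all genes), 25% higher in shDicer (11%) and 43.8% and 6.25% in shAgo2 (12.5% and 12.1%). NEDD4L, a ubiquitin ligase of the NEDD4 family, which act on angiomotins, rose by 1.72 in shDicer mRNA (adjusted p = 4.85e-07) and by 1.69 and 1.40 in shDicer and shAgo2 chromatin RNA. It kept the call without each sample. Its relative WWP1 changed by −0.74 in shDicer mRNA (adjusted p = 9.46e-05). The neighbours of NEDD4L had a median of 0.64 in shDicer mRNA and those of WWP1 of −0.53.

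Of the target list, 5 of 14 tested genes were higher and 2 lower in shDicer mRNA, 6 of 17 were higher in shDicer and 7 of 17 in shAgo2 chromatin RNA, and 0 were lower in either (1 each at an unadjusted p under 0.05). These are 35.7% and 14.3% in mRNA, beside 15.6% and 14.2% of all genes, and 35.3% and 41.2% higher in chromatin RNA, beside 11% and 12.5%. ANKRD1, a classical YAP1 target, fell by 1.81 in shDicer mRNA, from 2.93 ± 0.949 to 0.830 ± 0.177 CPM (adjusted p = 0.000792). FJX1, a secreted protein, fell by 0.68 (adjusted p = 0.000864). Both kept the call in 1 of 6 settings without a sample. NT5E, a membrane 5′-nucleotidase, rose by 1.83 in shDicer mRNA (adjusted p = 0.000396) and by 1.07 in shDrosha chromatin RNA (adjusted p = 0.0112), with calls kept in 2 of 6 and 1 of 4 settings. RBMS3, an RNA-binding protein, rose by 1.36 and 1.26 in shDicer and shAgo2 chromatin RNA, and ARHGEF17 by 1.11 in shDicer. TGFB2, a ligand of the TGF-beta family, rose by 1.304 in shAgo2 (adjusted p = 0.00109), a call lost without any 1 of the 4 samples. GADD45A, a stress response gene, rose by 0.84 in shDrosha (adjusted p = 0.00753), lost without wt replicate 1 (adjusted p = 0.101). ANKRD1 did not pass in any chromatin contrast.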

How the data were processed

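The deposited abundance tables of 14 samples were used. Per the study's methods, the authors quantified chrRNA-seq reads with kallisto against Ensembl cDNA and ncRNA, with a setting for strand, so that only annotated transcript sequence is counted. For mRNA-seq the same steps are not stated, but the files have the same transcripts and columns. The submitters' notes also name Bowtie, TopHat2, DESeq2 and hg38. The labels call the mRNA-seq RNA polyA, whereas the kit they name is one for total RNA. The deposited estimated counts are not normalized, and the deposited TPM values are scaled by the authors' tool to transcript length and depth. Estimated counts were summed per gene over GENCODE 44 annotation and rounded; 94.5% to 94.8% of counts in mRNA-seq (10216430 to 17215978 per sample) and 93.4% to 94.0% in chrRNA-seq (17484067 to 21553760) matched a gene. In these libraries 3 counts correspond to 0.184 to 0.311 CPM and 0.149 to 0.183 CPM.

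Genes were tested with the quasi-likelihood test of edgeR 4.0.16 (R 4.3.3, TMM, default filter, Benjamini-Hochberg over 15090 genes in mRNA and 32874 in chromatin RNA), in a fit of the 6 mRNA samples and one of the 8 chromatin samples. Thresholds were adjusted p under 0.001 for mRNA, 0.005 for shDicer and shAgo2 chromatin RNA and 0.05 for shDrosha, as in the study. Alternatives were DESeq2 1.42.0, its size factors, no filter, counts rebuilt from TPM, a replicate block, an offset for the 50 nearest genes, fits of only the groups compared, a looser threshold and each sample left out. The scripts were tested on simulated data. Named genes were the 10 members, the targeted genes, TEAD2, TEAD3, TEAD4, STK3, STK4, SAV1, NF2 and ANKRD1, per contrast the 3 highest and 3 lowest called pathway genes whose groups did not overlap, and the 5 genes most like AMOT; 1 gene that this rule names is not reported here. Members and lists were chosen with earlier results of these data known. From 0% to 2.38% of a member's 31-base subsequences occur in another gene. The 6 small RNA samples of the 20 in the series, and protein sequences, were not analysed here.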

Additional observations from a re-analysis of the deposited data

Results flagged for a closer look

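For 3 members the shDicer change differed between mRNA and chromatin RNA by a test of the difference. The change in mRNA minus that in chromatin RNA was −3.19 for CCN2, −2.23 for CCN1 and −0.96 for AMOTL2 on the log2 scale. The AMOTL2 call was lost in 7 of 10 settings without a sample (adjusted p up to 0.0212). AMOT chromatin RNA differed between the knockdown lines, with a log2 difference of −1.70 for shDicer against shAgo2, a call lost without either shAgo2 sample (adjusted p = 0.00759 and 0.00636). AMOT was chosen in part for its low level in shDicer mRNA, so that contrast is not independent of the choice. TEAD1 chromatin RNA lay below wt in both samples of shDicer (−0.15, adjusted p = 0.110) and above it in both labelled shDrosha (0.18, adjusted p = 0.178). Neither change passed, and the difference between these changes was not tested.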

How the results depend on the processing

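No value without a test, and no change that passed in either fit, reversed its direction. Apart from the looser threshold, each change of a member was set against its main fit in every setting. In 625 such pairs of change and setting it stayed on the same side of the threshold or, without a test, near its value. The call was lost in 32 and gained in 9, and values without a test moved in 3. Changes that passed in neither fit could switch sign. AMOTL1 in shDicer chromatin RNA, at 0.036, ranged from −0.064 to 0.13 without single samples. With counts scaled from TPM, 4 other pathway genes were higher and 1 lower in shDicer mRNA (12 and 6 before), and 1 member (LATS2) was higher in shDrosha. Over all genes, 1624 were then higher and 1481 lower in shDicer mRNA (2347 and 2145 before), and 141 and 176 in shDrosha (392 and 718 before). With the neighbours' median as an offset, 2 members were higher and 1 other pathway gene lower in shDicer mRNA, and 1 and 2 pathway genes were lower in shDicer and shAgo2 chromatin RNA (4 and 6 before). With that offset 1961 of all genes were higher and 1659 lower in shDicer mRNA, and 2211 and 2598 were lower in shDicer and shAgo2 chromatin RNA. DESeq2 called 1 pathway gene higher and 1 lower in shDrosha (279 and 737 of all genes). In shDicer against shAgo2 it called 1 lower (461 of all genes, with 515 higher). Without a filter on low counts, 1 pathway gene was lower in shDrosha (1120 of all genes). In shDicer against shAgo2, 1 was then higher and 1 lower (752 and 662 of all). When only wt and shAgo2 were fitted, 4 members were higher and 11 pathway genes lower, while 5437 of all genes were higher and 5564 lower (4098 and 3971 before). At an adjusted p under 0.05, 22 pathway genes were higher and 14 lower in shDicer mRNA (4485 and 4178 of all genes). In shDicer and shAgo2 chromatin RNA 11 each were lower (6115 and 6634 of all). In shDicer against shAgo2, 4 were higher and 4 lower (1621 and 1594 of all). Members higher were 2 in shDicer mRNA, 5 in shAgo2 (6867 of all) and 1 in shDicer against shAgo2. The causes were not tested.

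Counts of members here include AMOT. Without single samples, shDicer mRNA had 2 to 4 members lower, 8 to 14 pathway genes higher and 2 to 5 lower. In shDicer chromatin RNA 1 to 3 members were higher, and 10 to 15 pathway genes higher and 2 to 6 lower. In shAgo2 1 member was higher in every setting, and 7 to 10 pathway genes were higher and 3 to 4 lower. In shDrosha 0 to 1 members were lower and 0 to 2 pathway genes higher, and in shDicer against shAgo2 0 to 1 members were lower. Arms left with 1 sample are assumed to vary like the others.

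Replicate numbers are shared between groups, but the mean correlation of same-numbered samples was 0.0805 in mRNA, and 0.0583, 0.0164 and −0.114 for shDicer, shAgo2 and shDrosha with wt, so they were not taken as pairs. With the replicate block CCN1 lost its call in shDicer chromatin RNA (adjusted p = 0.00596), leaving 2 members higher, and the other counts of members did not change. With shDrosha numbers crossed in the block, a setting added after seeing the data, 1 member (LATS2) and 4 pathway genes were higher. There 1 pathway gene was lower, as was AMOT, which this contrast helped to choose. The background shares move too. Over all genes, shDrosha had 392 higher and 718 lower, but 26 and 46 without wt replicate 1, 32 and 58 without wt replicate 2, 129 and 521 without shDrosha replicate 1, 141 and 176 with counts scaled from TPM, 137 and 315 with the block, 1149 and 1962 with it crossed, and 520 and 1120 without a filter. For shDicer against shAgo2, 450 and 441 became 36 and 71 or 56 and 73 without an shAgo2 sample, 234 and 164 or 302 and 273 without an shDicer sample, 191 and 192 with scaled counts, 200 and 213 with the block, 198 and 222 with the neighbours' offset, and 752 and 662 without a filter. In shDicer mRNA 2347 and 2145 became 1436 and 1289 without wt replicate 1 and 3747 and 2817 without a filter. Without either wt sample, shDicer chromatin RNA had 2017 or 2101 higher (3630 before) and shAgo2 2341 or 2414 (4098 before), and shAgo2 had 2444 or 2682 without 1 of its own. With the offset, 2211 and 2598 were lower in these (3466 and 3971 before). CCN2, at 1.81 CPM in wt chromatin RNA, rests on the fewest counts of all members there.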
